A study of Mus musculus with 4 samples.

Results

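Of the 15537 genes tested for a difference between Hepa1c1c7 cells exposed to diethyl maleate (DEM) and cells exposed to dimethyl sulfoxide (DMSO), 9 encode proteins that store, export or take up iron or that sense it in the cytoplasm. They are the ferritin subunit genes Fth1 and Ftl1, the exporter gene Slc40a1, the transferrin receptor gene Tfrc, the transferrin gene Trf, the importer genes Slc11a2 and Slc39a14, and the iron regulatory protein genes Ireb2 and Aco1. Their probes were found by the RefSeq transcript that the array files give for each probe, which gave 15 of 41174 probes and 24 spots on each array. All 9 genes had a probe, and all 15 probes were well above background on all 4 arrays, so no member was lost to a filter on dim probes.

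Hepa1c1c7 is an established mouse hepatoma cell line. DEM, a thiol-reactive electrophile that the series title calls an NRF2 activator, was given at 100 µM for 6 hours before RNA was taken for 2 arrays, and the solvent DMSO was given for the same 6 hours before RNA was taken for the other 2. NRF2 is the transcription factor of the antioxidant response. Nothing in the labels says that the RNA samples of a group came from separate cultures, so a p-value here weighs a difference only against the spread of these RNA samples, and that spread may be technical. With 2 arrays per group the number of arrays limits the precision.

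Iron enters most cells bound to transferrin, a plasma protein made by hepatocytes, which docks on the transferrin receptor and is taken into endosomes, from which the transporter DMT1 moves the iron to the cytoplasm. Iron that is not used is kept inside the ferritin shell of heavy and light subunits or leaves through ferroportin, the known cellular iron exporter. The iron regulatory proteins bind hairpins called iron responsive elements in messenger RNAs when iron is scarce, which holds back translation of ferritin and ferroportin and protects the transferrin receptor message from decay. Genes for ferritin subunits and ferroportin are also known targets of NRF2 in mouse and human cells. The arrays measure messenger RNA, and translation was not measured.

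The exporter gene Slc40a1 rose 3.25-fold in DEM and was the 1 member of 9 past an adjusted p of 0.05 (limma, Benjamini-Hochberg over all genes tested), while 0 members were called lower. Over all genes tested, 0.714% were called higher and 0.508% lower. Ftl1, Tfrc and Slc11a2 had higher signals on both DEM arrays than on either DMSO array without passing that threshold. Of all genes tested, 24.9% had both DEM arrays above both DMSO arrays and 25.6% had both below. The DEM and DMSO arrays overlapped for Fth1, Trf, Slc39a14, Ireb2 and Aco1. At an unadjusted p under 0.05, limma had 4 members above 0 (Slc40a1, Ftl1, Tfrc and Slc11a2) and 0 below, against 9.02% and 10.2% of all genes tested. The median log2 change of the 9 genes was 0.01, and that of all genes tested was −0.01.

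**Figure D1:**
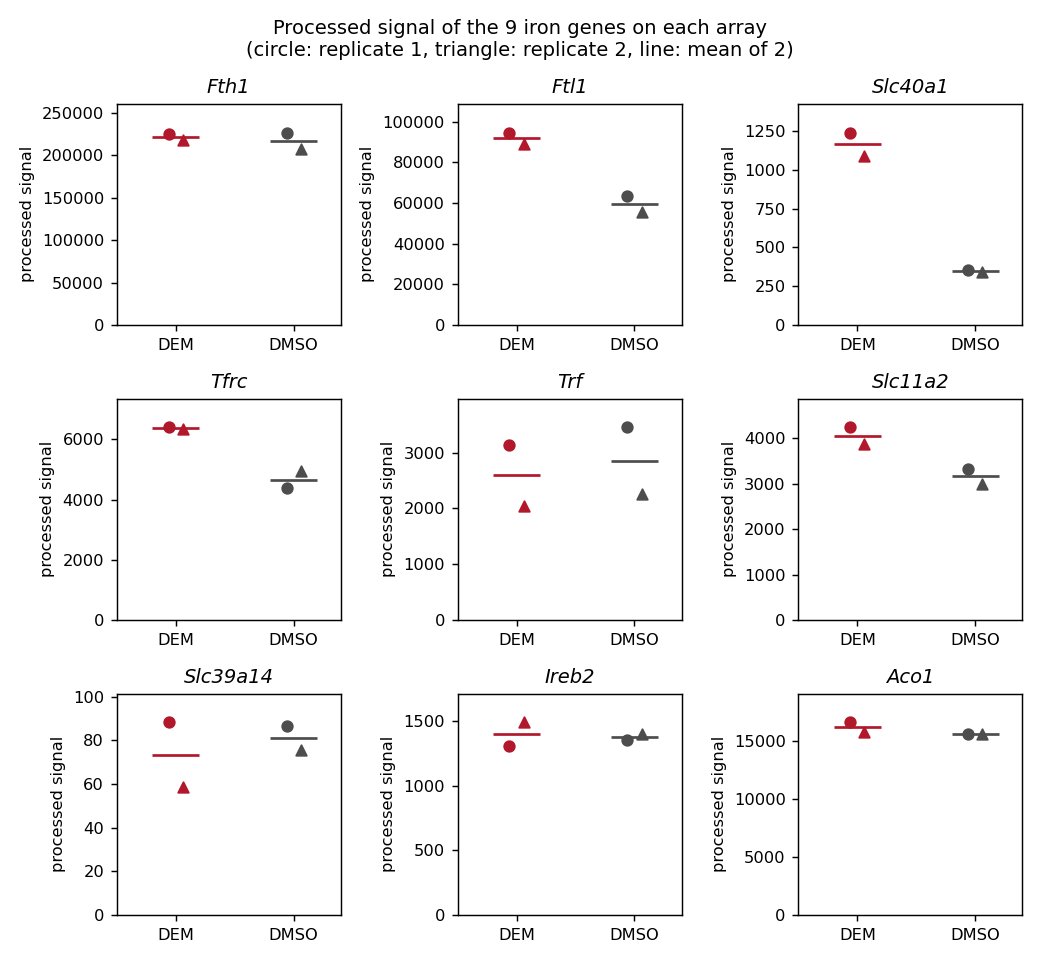
Processed signal (linear intensity, y axis from 0, own scale in each panel) of the probe used for each of the 9 iron genes, with DEM arrays in red on the left and DMSO arrays in grey on the right. Circles are replicate 1, triangles replicate 2 and lines the mean of the 2 arrays; the DEM points stand above both DMSO points for Ftl1, Slc40a1, Tfrc and Slc11a2, and by a small margin for Aco1, whose margin is gone once the arrays are scaled.

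Signals quoted for single arrays are the processed signals of the scanner software, in arbitrary linear units, before scaling between arrays. A log2 change is DEM minus DMSO after each array was scaled on the 75th percentile of its own log2 signals, a value of 548 and 528 for the DEM arrays and 532 and 513 for the DMSO arrays in signal units. Errors are limma standard errors with n = 2 arrays per group. Signals of different probes, also where summed or subtracted within an array, are not read as relative amounts of message, since each probe binds with its own strength.

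Slc40a1 encodes ferroportin, which carries iron out of the cell across the plasma membrane. Its probe read 1240 and 1090 in DEM and 354 and 341 in DMSO. Both DEM arrays were high and both DMSO arrays low, with a wide gap between the groups. In these bulk samples, a change in the number of cells that make a message and a change in its amount per cell cannot be told apart. The log2 change was 1.70 ± 0.09 (SE, 95% interval 1.45 to 1.95, limma adjusted p = 0.0229), which is 3.25-fold with an interval of 2.73-fold to 3.87-fold. It was the 51st largest rise among the 15537 genes tested. Each of the 4 differences between a DEM and a DMSO array lay between 1.63 and 1.77 on the log2 scale. The call was lost without DMSO replicate 1 (log2 change 1.70, limma adjusted p = 0.167) or DMSO replicate 2 (1.70, adjusted p = 0.208), settings in which limma called no gene at all (with an unadjusted p under 0.05, 983 and 844 genes were above 0 and 1130 and 1171 below), and it was also lost when dim probes were not filtered out (1.70, adjusted p = 0.202). The arrays carried 1 probe for this gene, so no other probe could be set beside it.

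Ferritin storage was measured by 1 probe for each subunit. Ftl1 encodes the light chain, which helps iron to form a mineral core inside the shell. Its probe read 94700 and 89300 in DEM and 63700 and 55400 in DMSO. The DEM arrays were high and the DMSO arrays low, without overlap. Its log2 change was 0.59 ± 0.10 (SE, 95% interval 0.33 to 0.85), 1.50-fold, and it did not pass the threshold (limma adjusted p = 0.0808). It passed under 4 of 17 alternative settings, namely normexp background correction (log2 change 0.58, adjusted p = 0.0176), median scaling (0.73, adjusted p = 0.0408) and eBayes with an intensity trend without and with robust fitting (0.59 in both, adjusted p = 0.00671 and 0.00223).

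Fth1 encodes the heavy chain, the subunit that oxidises ferrous iron as it enters. Its probe read 225000 and 218000 in DEM and 227000 and 208000 in DMSO, and the 2 DEM values lay between the 2 DMSO values. The log2 change was −0.01 ± 0.09 (SE, 95% interval −0.24 to 0.22, limma adjusted p = 0.955), an interval that runs from 0.84 to 1.16 as a fold. No spot of the 9 genes was saturated. That flag does not show whether so bright a probe responds in proportion to its message, which was not tested. Ferritin genes have many near-identical pseudogene copies, and cross-hybridisation of such transcripts to these probes was not tested.

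Because both subunits were read on the same array, the difference between their log2 signals does not depend on a scaling that shifts a whole array by the same amount. Quantile normalization and normexp can change it. The log2 changes of Ftl1 and Fth1 were 0.552 and 0.0362 with quantile normalization and 0.582 and 0.120 with normexp. The Ftl1 minus Fth1 difference was −1.25 and −1.29 in DEM and −1.83 and −1.91 in DMSO. It was thus 0.60 higher in DEM on the log2 scale, 1.52-fold, with both DEM arrays above both DMSO arrays (exact permutation test, two-sided p = 0.333, the smallest that 2 against 2 arrays can give). The same difference between Slc40a1 and Ftl1 was −6.26 and −6.36 in DEM and −7.49 and −7.34 in DMSO, 1.11 higher in DEM (exact permutation test, two-sided p = 0.333). In these arrays the exporter signal therefore moved further than the light chain signal, and the light chain signal further than the heavy chain signal. The permutation test cannot call these amounts at this size. The brighter of these probes moved less, and whether bright probes respond in proportion to their messages was not tested.

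The 250 bases before the annotated start of the ferritin genes are shown because their signals differed in how far they moved. They were taken from RefSeq on build GRCm38.p6, 5′ to 3′ on the strand of the gene, at chr7:45459887-45460136 (minus strand) for Ftl1 and chr19:9982396-9982645 (plus strand, the downstream of the 2 listed starts) for Fth1. Capitals mark the letters CCAAT on either strand, a common promoter element that was looked for after the sequences were seen.
Ftl1: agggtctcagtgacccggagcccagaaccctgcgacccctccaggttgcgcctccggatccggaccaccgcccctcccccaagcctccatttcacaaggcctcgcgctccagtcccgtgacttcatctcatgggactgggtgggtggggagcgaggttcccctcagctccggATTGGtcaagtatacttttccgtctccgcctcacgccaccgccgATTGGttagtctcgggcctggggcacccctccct
Fth1: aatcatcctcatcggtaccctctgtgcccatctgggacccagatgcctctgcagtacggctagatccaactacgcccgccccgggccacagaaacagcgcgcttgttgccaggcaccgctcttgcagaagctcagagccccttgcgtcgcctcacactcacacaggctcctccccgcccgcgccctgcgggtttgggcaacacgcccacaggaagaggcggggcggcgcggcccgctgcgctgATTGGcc
CCAAT stood at 2 places before the Ftl1 start, at 1 before this Fth1 start, at 0 before the other Fth1 start and at 1 before 1 of the 2 Tfrc starts. In all, 3 of the 7 windows listed for 5 of the 9 members held it, against 33.8% of 32851 RefSeq windows in the same stretch. The core of the antioxidant response element, TGACNNNGC on either strand, was in 0 of these 7 windows (Fth1, Ftl1, Tfrc, Ireb2 and Aco1), each running from 250 bases before to 50 after a start, against 12.4% of all windows. An iron responsive element on the sense strand (a C, 5 bases, the loop CAGTGN and 5 bases that pair with the first 5, with G-T pairs allowed) was also in 0 of these 7 windows, against 0.0791% of all windows. The result says only that these letters are not in these windows.

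Iron uptake through transferrin was measured by the receptor and its ligand. Tfrc encodes transferrin receptor 1. Its single probe was printed at 10 spots on each array, and the mean over spots without an outlier flag was 6399 and 6358 in DEM and 4388 and 4936 in DMSO. Both DEM arrays were above both DMSO arrays, and the DMSO arrays differed from each other more than the DEM arrays did. No unflagged spot on a DEM array read lower than any on a DMSO array. Spots ran from 6260 to 6610 and from 6300 to 6420 on the DEM arrays and from 4150 to 4790 and from 4770 to 5140 on the DMSO arrays. Outlier flags removed 2 and 4 of the 10 spots on the DEM arrays and 0 and 2 on the DMSO arrays. The log2 change was 0.41 ± 0.11 (SE, 95% interval 0.11 to 0.72, 1.33-fold) and did not pass the threshold (limma adjusted p = 0.171). With the flagged spots kept, a setting chosen after seeing the data, it was 0.41 (adjusted p = 0.164), and it passed under 1 of 17 alternatives, eBayes with an intensity trend and robust fitting (0.41, adjusted p = 0.0428).

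Trf encodes transferrin, which hepatocytes secrete. Its probe read 3140 and 2040 in DEM and 3450 and 2250 in DMSO. In each group replicate 1 was the higher array, and the arrays of a group differed by more than the group means did. The log2 change was −0.18 ± 0.28 (SE, 95% interval −0.94 to 0.58, limma adjusted p = 0.789), the widest interval among the 9 genes. DEM replicate 1 minus DMSO replicate 1 was −0.18, and DEM replicate 2 minus DMSO replicate 2 was also −0.18, whereas DEM replicate 1 minus DMSO replicate 2 was 0.39 and DEM replicate 2 minus DMSO replicate 1 was −0.75. Its sign turned without DEM replicate 2 (0.10) or DMSO replicate 1 (0.10).

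**Figure D2:**
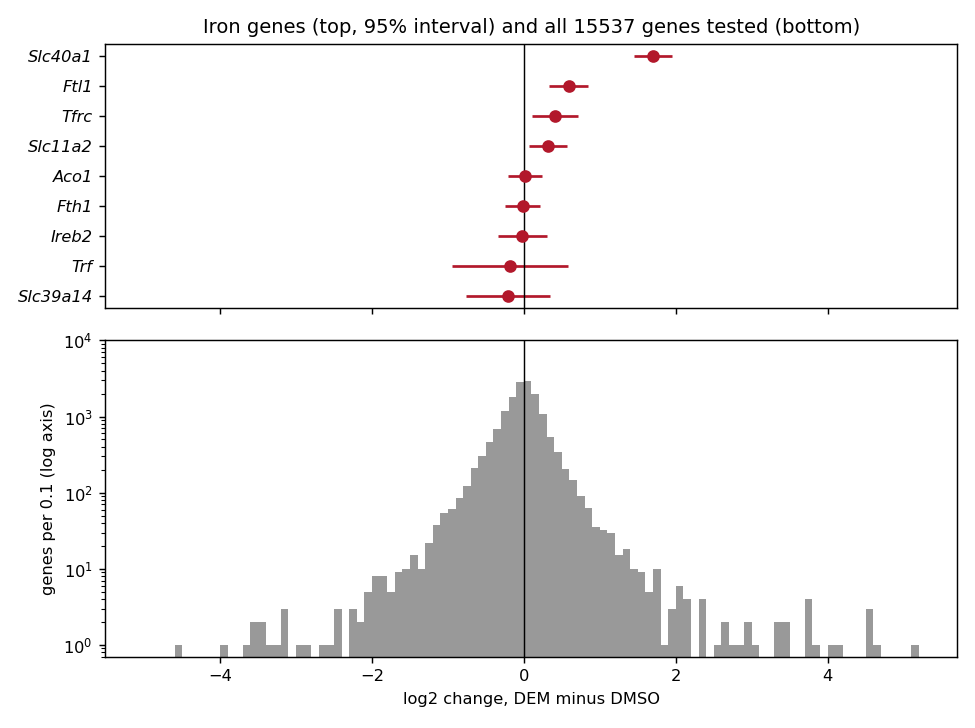
Log2 change of the 9 iron genes with 95% limma intervals (top) and histogram of the log2 changes of all 15537 genes tested, on a log axis (bottom), both on the same x axis. Slc40a1 at 1.70 lies in the sparse right flank; Slc11a2, Tfrc and Ftl1 lie between 0.32 and 0.59, and the other 5 members lie between −0.21 and 0.01, in the crowded centre.

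The importers of divalent metals were read by several probes each. Slc11a2 encodes DMT1, which moves ferrous iron out of endosomes and into absorptive cells. The probe used for the gene read 4240 and 3870 in DEM and 3330 and 3000 in DMSO, with no overlap of the groups. Its log2 change was 0.32 ± 0.09 (SE, 95% interval 0.07 to 0.57, 1.25-fold, limma adjusted p = 0.189), so the threshold was not passed. A probe for another RefSeq transcript of the gene read 536 and 491 in DEM and 428 and 462 in DMSO, again without overlap, with a log2 change of 0.16. The last probe, for the same RefSeq transcript as the probe used, read 210 and 176 in DEM and 175 and 173 in DMSO. Its log2 change was 0.10, and its groups overlapped once the arrays were scaled. The 3 probes thus pointed the same way with different sizes, and with every probe on its own 0 of the 3 were called (limma adjusted p from 0.198 to 0.685), against 0.61% of probes called higher and 0.402% called lower in that fit. At an unadjusted p under 0.05, 1 of the 3 was higher, against 1801 of all 21140 probes in that fit.

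Slc39a14 encodes ZIP14, which imports zinc and iron that is not bound to transferrin. The probe used for the gene read 88.3 and 58.5 in DEM and 86.5 and 75.5 in DMSO, and before scaling the 2 DEM arrays lay on either side of the DMSO arrays. Its log2 change was −0.21 ± 0.21 (SE, 95% interval −0.77 to 0.34, limma adjusted p = 0.650), and it turned to 0.06 without DEM replicate 2. The other probe read 46.3 and 48.1 in DEM and 58.3 and 47.9 in DMSO and gave a log2 change of −0.20, with values that overlapped before scaling and not after it. Within an array, the Slc11a2 minus Slc39a14 difference was 5.59 and 6.05 in DEM and 5.27 and 5.31 in DMSO, 0.53 higher in DEM (exact permutation test, two-sided p = 0.333).

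**Figure D3:**
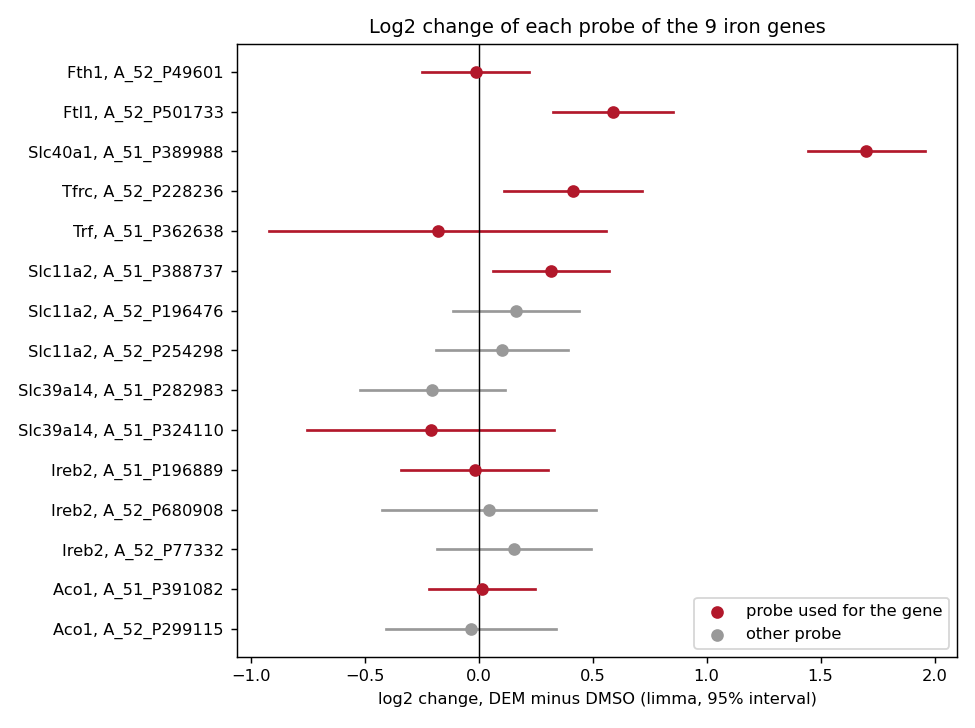
Log2 change, DEM minus DMSO, of each of the 15 probes of the 9 iron genes with 95% intervals from limma fitted to every probe on its own; red marks the probe used for a gene and grey its other probes. The 3 Slc11a2 probes lie between 0.10 and 0.32, both Slc39a14 probes near −0.20, and the intervals of all Ireb2 and Aco1 probes cross 0.

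The iron regulatory proteins showed no difference that these arrays could resolve. Ireb2 encodes IRP2, whose amount is set by its breakdown when iron is ample. The probe used for the gene read 1310 and 1490 in DEM and 1350 and 1400 in DMSO, so that the DMSO arrays lay between the DEM arrays. Its log2 change was −0.02 ± 0.12 (SE, 95% interval −0.34 to 0.31, limma adjusted p = 0.957). The other 2 probes were dim, at 23.6 and 24.3 in DEM and 19.6 and 26.0 in DMSO for the first and 28.7 and 33.4 in DEM and 26.7 and 27.4 in DMSO for the second. They stood close to the lowest signals called well above background, 15.7 and 14.6 on the DEM arrays and 13.5 and 12.0 on the DMSO arrays. Their log2 changes were 0.04 and 0.15, with overlapping groups after scaling.

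Aco1 encodes IRP1, which is a cytosolic aconitase while it carries its iron-sulphur cluster and binds RNA without it. The probe used for the gene read 16600 and 15800 in DEM and 15600 and 15600 in DMSO. Its log2 change was 0.01 ± 0.08 (SE, 95% interval −0.21 to 0.24, limma adjusted p = 0.959). The DEM arrays stood slightly above the DMSO arrays before scaling and overlapped them after it. A dimmer probe read 99.3 and 99.6 in DEM and 89.7 and 109 in DMSO, with a log2 change of −0.03. The Ireb2 minus Aco1 difference within an array was −3.66 and −3.41 in DEM and −3.53 and −3.48 in DMSO, a mean difference of −0.03 (exact permutation test, two-sided p = 1.0). As folds, the intervals ran from 0.79 to 1.24 for Ireb2 and from 0.86 to 1.18 for Aco1. A missed threshold does not show that the levels were equal.

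**Figure D4:**
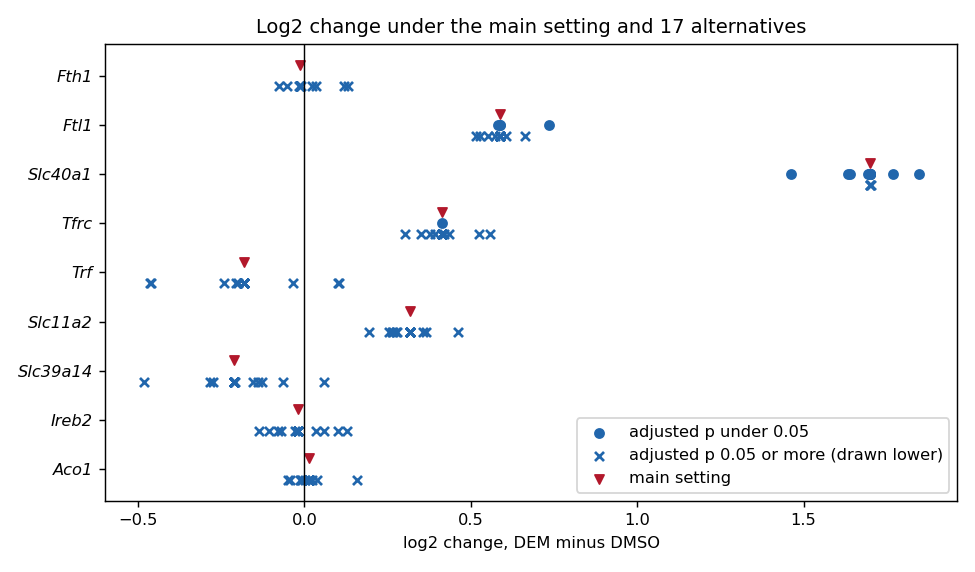
Log2 change of each iron gene under the main setting (red triangles) and under the main and 17 alternative settings together (blue), with circles where the limma adjusted p was under 0.05 and crosses, drawn slightly lower, where it was 0.05 or more. Slc40a1 ran from 1.46 to 1.85, Ftl1 from 0.51 to 0.73, Tfrc from 0.30 to 0.56 and Slc11a2 from 0.19 to 0.46, all above 0, while the marks of Fth1, Trf, Slc39a14, Ireb2 and Aco1 stand on both sides of 0.

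A wider list of 41 other genes of iron handling was read in the same fit. It holds the genes of the hormone hepcidin and its regulators, of ferroxidases and ferrireductases, of iron chaperones, of mitochondrial iron import and iron-sulphur cluster assembly, and of haem and ferritin scavenging. Of these, 40 had a named probe, 23 were tested and 17 were too dim to be tested, among them Hamp, which encodes hepcidin, and its regulators Hjv, Tfr2, Tmprss6 and Bmp6. Limma called 0 of the 23, and 1 was called with normexp background correction. At an unadjusted p under 0.05, limma had 3 higher (Hfe, Hpx and Lcn2) and 0 lower, against 9.02% and 10.2% of all genes tested. The groups did not overlap for 9 of the 23 genes with higher and 3 with lower signals in DEM, against 24.9% and 25.6% of all genes tested. The median log2 change was 0.10, with 18 genes above 0 and 5 below. Over all genes tested the median was −0.01, with 7582 genes above 0 and 7955 below. Hpx is among the 3, the 9 and the 18 genes, and it passed the filter through its DEM arrays alone, where it was higher.

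Within that list the largest differences stood in a few genes. Hfe, whose protein binds transferrin receptor 1 and takes part in iron sensing, read 2190 and 1710 in DEM and 1400 and 1010 in DMSO. Its DEM arrays were above both DMSO arrays, with a log2 change of 0.66 ± 0.19 (SE, limma adjusted p = 0.190), and it was the gene called with normexp (0.82, adjusted p = 0.0237). Hpx, which encodes the haem scavenger hemopexin, was dim on both DMSO arrays (not well above background). It read 21.4 and 23.8 in DEM and 16.2 and 11.9 in DMSO. Its fitted log2 value was 0.66 (limma adjusted p = 0.161), and the size of the difference is uncertain because the DMSO signals were that dim. With normexp background correction the fitted log2 value of Hpx was 0.07 (adjusted p = 0.697). Cp encodes ceruloplasmin, the plasma ferroxidase that works with ferroportin, and read 3980 and 4440 in DEM and 4670 and 5730 in DMSO. It was the lowest of the list, with a log2 change of −0.34 ± 0.16 (SE, limma adjusted p = 0.346) and no overlap of the groups.

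Slc25a37 encodes mitoferrin 1, an importer of iron into mitochondria, and read 3690 and 4030 in DEM and 2780 and 3190 in DMSO (log2 change 0.33 ± 0.13, SE, limma adjusted p = 0.285). Slc39a8 encodes ZIP8, a relative of ZIP14, and read 285 and 318 in DEM and 251 and 229 in DMSO (0.29 ± 0.11, adjusted p = 0.275). Lcn2 encodes lipocalin 2, which binds bacterial siderophores, and read 56.1 and 55.1 in DEM and 43.3 and 45.6 in DMSO (0.28 ± 0.09, adjusted p = 0.223). All 3 missed the threshold. The groups did not overlap for any of them, and they were named for the size of their change (the share of upward gaps over all genes was 24.9%).

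**Figure D5:**
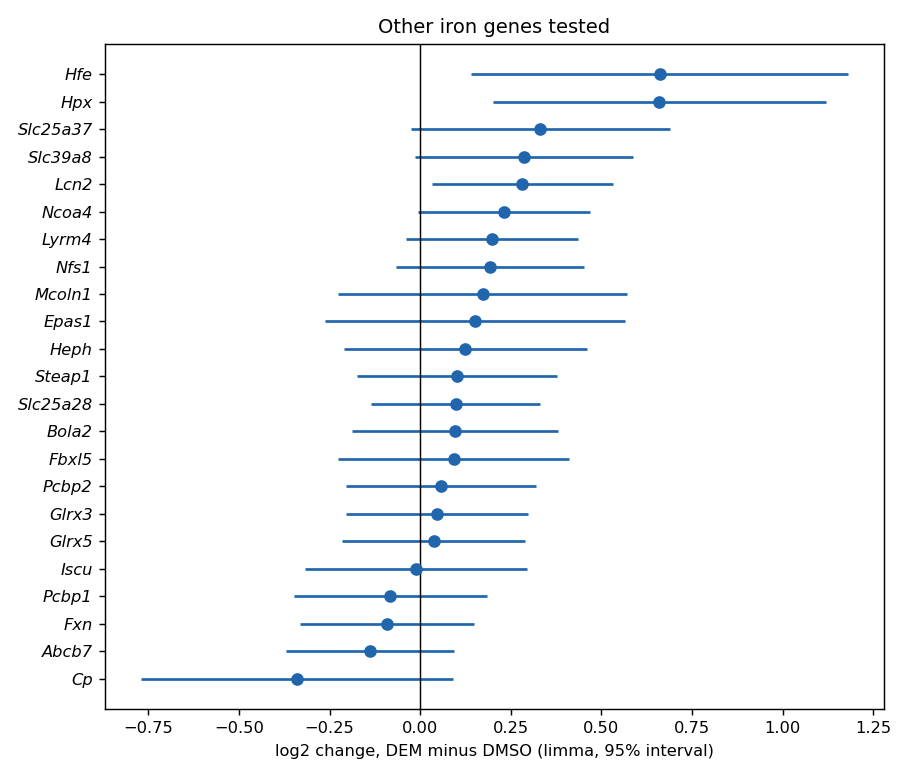
Log2 change, DEM minus DMSO, with 95% limma intervals for the 23 tested genes of the wider iron list, ordered by their change. Hfe (0.66) stands highest among genes well above background in both groups and Cp (−0.34) lowest. The point of Hpx is a fitted value with no DMSO array well above background. Above 0 lie 18 of the 23 points, Hpx among them, against 7582 of all 15537 genes tested.

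The array profiles most like that of Slc40a1, by the smallest Euclidean distance between log2 signals centred on the mean of the 4 arrays, belonged to Txlnb (distance 0.13, log2 change 1.60), Entpd5 (0.19, 1.60) and Cachd1 (0.21, 1.61), out of 10540 named genes well above background on every array. For Slc39a14, the member with the lowest log2 change, they were Tle2 (0.06, −0.19), Frs3 (0.07, −0.23) and Scn2a (0.07, −0.27). With 4 arrays in 2 groups, these are descriptions of a short profile.

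Over the whole series, limma called 111 genes higher and 79 lower, a share of rises of 58.4% that was 71.3% with median scaling, 65.6% with quantile normalization and 35.9% with spike-in scaling. Median scaling moved the median log2 change of all genes to 0.14, against −0.01 with the scaling used. Marker genes were also read, since the extract protocol speaks of liver. Both groups share their source, so a difference between DEM and DMSO cannot check the label of the tissue. Of 13 hepatocyte markers 7 were tested and 0 called. At an unadjusted p under 0.05, 3 were higher (Afp, Apob and Hpx), against 9.02% of all genes tested. Apob and Hpx would not have passed the filter on dim probes without their DEM arrays, where they were higher. The Alb arrays of the groups overlapped (log2 change 0.13, adjusted p = 0.661 in limma). Apob read 52.7 and 119 in DEM and 14.4 and 3.46 in DMSO, where 1 array was well above background (log2 change 3.45, adjusted p = 0.138), a gene named after its value was seen. The markers Ttr, Apoa1, Fgb, Hnf4a and Ahsg were too dim to be tested. Of 8 macrophage markers, a cell type rich in ferroportin, 2 were tested and 0 called. At an unadjusted p under 0.05, 1 was lower, against 10.2% of all genes tested. These 2 went opposite ways. Csf1r read 1860 and 1320 in DEM and 1300 and 994 in DMSO (log2 change 0.42, limma adjusted p = 0.362). Cd14 read 1420 and 1140 in DEM and 1770 and 1610 in DMSO (−0.45, limma adjusted p = 0.176). Their summed signal was 3280 and 2460 in DEM and 3070 and 2604 in DMSO. Adgre1, Ptprc, Marco, Lyz2 and Clec4f were too dim to be tested. Of 6 erythroid markers 2 were tested, with a summed signal of 99.3 and 67.0 in DEM and 116 and 78.2 in DMSO. Hbb-bt, Gata1 and Klf1 were among those too dim to be tested. Epor, the erythropoietin receptor gene, was called lower (21.4 and 21.9 in DEM, 46.7 and 38.8 in DMSO, log2 change −1.02, limma adjusted p = 0.0496), a gene named after its value was seen. Over all genes tested, 0.508% were called lower. The Epor signals in DEM stood close to the lowest signals called well above background there, 15.7 and 14.6. Hba-a1, the other marker tested, had overlapping groups (log2 change 0.15, limma adjusted p = 0.876). Limma called 0 of the 4 tested fibroblast and stellate markers and 0 of the 1 tested endothelial marker, also at an unadjusted p under 0.05. The fibroblast and stellate markers were not dim as a list, with a summed signal of 41282 and 47022 in DEM and 45270 and 48359 in DMSO. Most of it was Col1a1, which read 33075 and 38800 in DEM and 37350 and 40888 in DMSO. The part of any of these in the iron gene values was not tested.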

How the data were processed

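Total RNA (500 ng per sample) was amplified and labelled with Cy3 for 1-colour arrays, per the labels' protocols. Per the file headers, the arrays (annotated on mm9) were read by Agilent Feature Extraction 10.7.3.1, and all 4 shared 1 slide and 1 scan time. The deposited values used are each spot's processed signal, a background-subtracted intensity; the deposited value table held the same intensity at all 45018 spots.

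From these, log2 signals were scaled on the 75th percentile of 43379 non-control spots, outlier spots were dropped and the spots of a probe averaged. Probes were named through RefSeq transcripts of GRCm38.p6 (26690 of 41174). A probe was tested if well above background on at least 2 of 4 arrays, and the brightest probe stood for its gene. The test was limma 3.58.1 (R 4.3.3), with Benjamini-Hochberg adjustment over 15537 genes and a threshold of 0.05, checked on simulated data. Normexp used median spot signals with an offset of 50. Named genes are all members, the 6 wider-list genes with the largest change when none was called, and the 3 nearest profiles of 2 members. Members, lists and alternatives were chosen with earlier results of these data known.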

Additional observations from a re-analysis of the deposited data

How the results depend on the processing

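Across 17 alternative settings, the iron genes called higher numbered 1 in the main setting, 2 with normexp background correction, median scaling or eBayes with an intensity trend, 3 with trend and robust fitting, 0 without a filter on dim probes, and 0 to 1 when 1 array was left out. Iron genes called lower numbered 0 throughout, and other iron genes called higher numbered 1 with normexp and 0 otherwise. Over all genes the counts higher and lower were 437 and 370 with normexp, 61 and 32 with quantile normalization, 404 and 163 with median scaling, 200 and 357 with spike-in scaling, 0 and 0 without a filter on dim probes (1246 and 1919 at an unadjusted p under 0.05), 230 and 196 with probes well above background on all arrays, 415 and 311 with an intensity trend, and 492 and 390 with trend and robust fitting. With 1 array left out, where a lone array is assumed to vary like the other group, they ran from 0 to 69 higher and from 0 to 52 lower. The cause of these shifts was not tested. The value table gave identical values.

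Signs turned for Fth1, Trf, Slc39a14, Ireb2 and Aco1, which missed the threshold. Ftl1, Tfrc and Slc11a2 also missed it in the main setting and kept their sign under every setting. Fth1 was 0.120 with normexp, 0.0362 with quantile normalization and 0.131 with median scaling, and ran from −0.0508 to 0.0228 when an array was left out. Trf ran from −0.465 to 0.105 and Slc39a14 from −0.481 to 0.0602 when an array was left out. Ireb2 was 0.127 with median scaling and 0.0596 with the mean of its probes, and ran from −0.137 to 0.101 when an array was left out. Aco1 was −0.0442 with normexp, −0.00852 with quantile normalization, −0.0499 with spike-in scaling and −0.0104 with the mean of its probes, and ran from −0.0137 to 0.0387 when an array was left out.

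The groups share replicate numbers, which nothing in the labels says mark a shared culture or day. Over genes, DEM replicate 1 minus 2 correlated with DMSO replicate 1 minus 2 at r = 0.14. With the replicate number as a block, 74 genes were called higher and 69 lower, Slc40a1 stayed called (1.70, limma adjusted p = 0.0457), 1 iron gene was called higher and 0 lower, and 0 other iron genes were called. Precision is limited by the 2 arrays per group.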
